A study of Mus musculus with 16 samples.

Results

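The liver described here came from mice in which MET and EGFR, the growth factor receptors that drive liver regeneration, had both been targeted, 14 days after partial hepatectomy, the surgical removal of part of the liver. It is a single array, MET_KO_canertinib at day 14, and it was set against the 3 other day 14 arrays of the study, MET_FLOX_canertinib, MET_KO and MET_FLOX. The series holds 16 arrays in all, 1 for each of the 4 arms at days 0, 2, 7 and 14. A gene was counted as outside the range where its log2(signal + 16) in MET_KO_canertinib lay more than 1, which is 2-fold, above the highest or below the lowest of the other 3 arms. The higher signal also had to exceed its own array's median, which for a lower gene applied to each of the other 3 arrays. Of 13577 genes measured, 818 met this rule, which is 6.02%.

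All mice were of a mixed 129SV and C57BL/6 background and, per the labels, of the genotype Metff/ff:ERCre+/+, so the flox arms carried the same floxed Met gene and the same inducible recombinase as the knockout arms. In MET_KO_canertinib, exon 16 of Met had been deleted with tamoxifen, and the animals received canertinib, which inhibits EGFR and its relatives, in the diet with a target of 80 mg/kg. MET_FLOX_canertinib received the diet without the deletion, MET_KO had the deletion without the drug, and MET_FLOX had neither. The labels describe the inhibition as systemic and name no cell type for the recombinase, so neither blockade is described as limited to hepatocytes. Whether the flox arms also received tamoxifen is not stated. The sex and age of the mice, and whether an array held RNA of 1 animal or of a pool, are not stated in the labels. With 1 array an arm at day 14 there is no spread between livers, so differences at day 14 carry no p-value and are described by their size.

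Hepatocyte growth factor acts through MET, and EGF, amphiregulin and TGF alpha act through EGFR. Both receptors signal through the RAS-ERK and PI3K-AKT cascades, and in a normal mouse the liver regains its mass within days of the operation. Hepatocytes make most plasma proteins, detoxify drugs through cytochromes P450 and conjugating enzymes, and run bile acid, urea and lipid synthesis. In an acute phase response, interleukin 1 and interleukin 6 act through NF-kappa-B and STAT3 on hepatocytes, which then secrete serum amyloids, orosomucoids and lipocalin.

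The MET_KO_canertinib liver had 329 genes above the range of the other 3 arms, which is 2.42% of the genes measured, and 489 below it, which is 3.6%. The same rule, applied to each other arm against its own 3 counterparts, gave 272 genes or 2.0% for MET_FLOX_canertinib, with 100 (0.737%) above and 172 (1.27%) below. It gave 194 genes or 1.43% for MET_KO, with 57 (0.42%) above and 137 (1.01%) below, and 140 genes or 1.03% for MET_FLOX, with 45 (0.331%) above and 95 (0.7%) below. With neither a minimum distance nor the condition on the array median, 4298 genes (31.7%) stood above and 4110 (30.3%) below in MET_KO_canertinib. Left without MET_FLOX_canertinib, the range had 547 genes above it and 761 below it, and without MET_FLOX it had 515 above it. The Spearman correlation across genes of MET_KO_canertinib with the other 3 arrays was 0.823 to 0.844, against 0.923 between MET_KO and MET_FLOX. The median difference of all genes from the median of the other arms was 0.02 on the log2 scale.

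**Figure D1:**
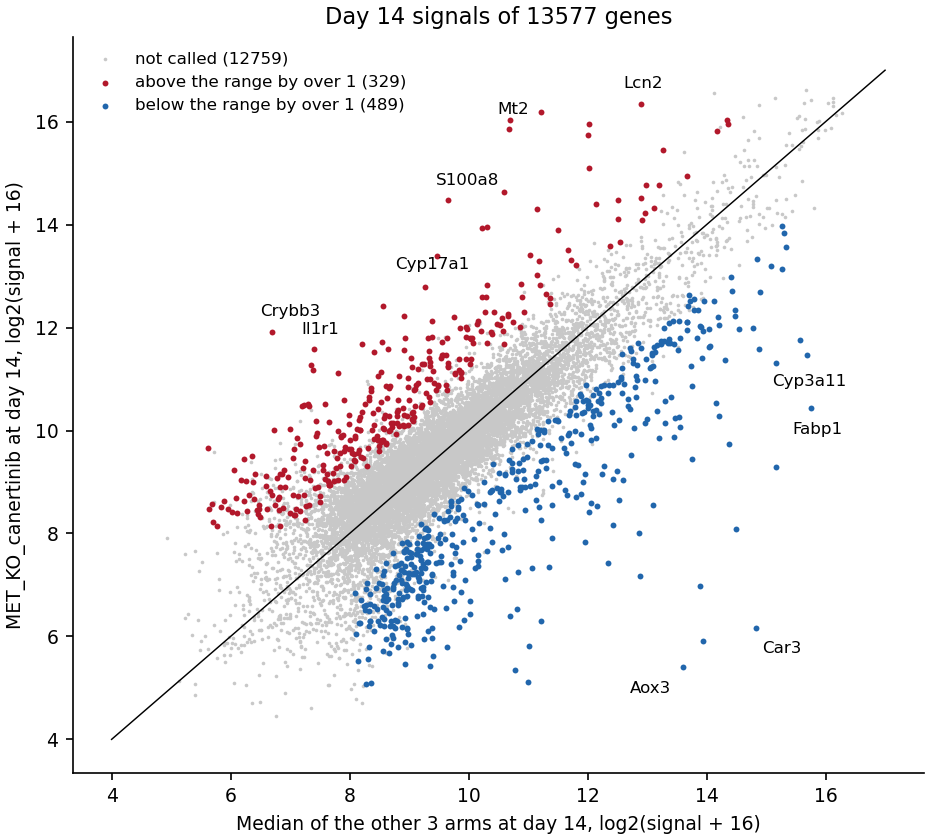
Each point is 1 of 13577 genes at day 14, with log2(signal + 16) in MET_KO_canertinib on the y axis and the median of the other 3 arms on the x axis; the line marks equal values. The 329 genes above the range (red) and the 489 below it (blue) spread over most of the signal range, and Car3 and Aox3 lie furthest below the line.

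**Figure D2:**
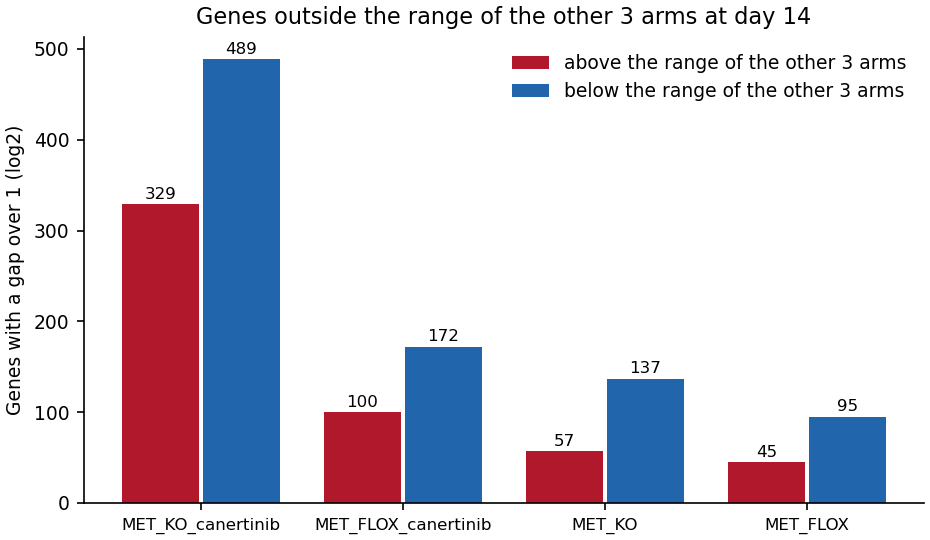
Bars give the number of genes more than 1 (log2) above (red) or below (blue) the range of the other 3 arms at day 14, for each arm in turn. MET_KO_canertinib has 329 above and 489 below, more than MET_FLOX_canertinib with 100 and 172, MET_KO with 57 and 137, and MET_FLOX with 45 and 95.

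The distances were larger on the lower side. The 489 lower genes had a median distance of 1.58 from the range on the log2 scale and a largest of 8.01, and 134 of them lay more than 2 away. The MET_KO_canertinib signal was under its array median in 231 of them. For the 329 higher genes the median was 1.38, the largest 5.12, and 55 lay more than 2 away, and in 161 at least 1 other arm was under its array median. In 391 of the lower genes the MET_KO_canertinib day 14 value was the lowest of all 16 arrays, and in 264 of the higher genes it was the highest of all 16. Several probe sets were kept for 100 of the higher and 180 of the lower genes. All probe sets of a gene lay on its called side of the range, at any distance, in 69 of these higher and 90 of these lower genes. This does not mean that each of them passed the 2-fold rule. At the edge of the rule, Anxa2, at a distance of 1.0028, was just counted and Saa1, at 0.9998, was not, while on the lower side Arhgap12, at -1.0026, was just counted and Slc6a6, at -0.9987, was not.

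The 4 day 14 arrays were alike in scale, with median signals of 265 in MET_KO_canertinib, 248 in MET_FLOX_canertinib, 246.3 in MET_KO and 245.8 in MET_FLOX. The 3′ to 5′ signal ratio of Gapdh, a measure of RNA integrity, was 1.13 in MET_KO_canertinib, 2.24 in MET_FLOX_canertinib and 0.811 in both MET_KO and MET_FLOX. The array of the combined blockade thus lay between the others in this ratio. Alb and Hnf4a lay far above the array medians on all 4 arrays. Alb, the main plasma protein, gave 80625 in MET_KO_canertinib, 110032 in MET_FLOX_canertinib, 67901 in MET_KO and 71474 in MET_FLOX. Hnf4a, a transcription factor of hepatocyte identity, gave 10497 in MET_KO_canertinib, against 12205 in MET_FLOX_canertinib, 11796 in MET_KO and 10417 in MET_FLOX. Neither lay outside the range by the rule.

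Met, which encodes the receptor deleted in the knockout arms, gave a signal of 1321 in MET_KO_canertinib, 1264 in MET_FLOX_canertinib, 1011 in MET_KO and 1041 in MET_FLOX. The position of its probe sets relative to the deleted exon is not stated, so this signal is no check of the knockout. Egfr gave 7014 in MET_KO_canertinib, 12541 in MET_FLOX_canertinib, 7563 in MET_KO and 4415 in MET_FLOX, which puts the combined blockade inside the range. Hgf, the ligand of MET, gave 491 in MET_KO_canertinib, above 145 in MET_FLOX_canertinib, 275 in MET_KO and 338 in MET_FLOX by less than the 2-fold the rule asks for. None of the 27 measured ligands, receptors and adaptors of the MET and EGFR pathways was outside the range by over 1, beside 6.02% of all genes. In a list this short, a count of none is no result about the pathways. At any distance 17 of them lay above the range and 4 below, beside 31.7% and 30.3% of all genes, and their median difference was 0.28.

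Among the 15 genes furthest below the range, Car3 had the largest distance. Car3, a carbonic anhydrase abundant in rodent liver, gave 56 in MET_KO_canertinib, against 18508 in MET_FLOX_canertinib, 39565 in MET_KO and 29037 in MET_FLOX. Aox3, an aldehyde oxidase, gave 26 in MET_KO_canertinib, against 12479 in MET_FLOX_canertinib, 13228 in MET_KO and 7397 in MET_FLOX. Inmt, a methyltransferase of small amines, gave 44 in MET_KO_canertinib, against 9989 in MET_FLOX_canertinib, 15751 in MET_KO and 16388 in MET_FLOX. All 3 values of MET_KO_canertinib lay under that array's median of 265, where a fold depends on the 16 added to the signal. The distance of Car3 from the lowest other arm, 8.01 on the log2 scale, was 8.34 with 1 added and 7.27 with 64 added, and that of Aox3 was 7.46, against 8.09 and 6.37. Folds are therefore given on the (signal + 16) scale and for brighter genes. Acaa1b, a peroxisomal thiolase, gave 257 in MET_KO_canertinib, against 24386 in MET_FLOX_canertinib, 22065 in MET_KO and 23038 in MET_FLOX. The other 11 of the 15 largest distances, from 4.14 to 6.26 on the log2 scale, were those of Sult2a8, Ces1d, Ces1e, Hsd3b5, Gsta4, Fabp1, Ces1f, Mup3, Cyp4f14, Cyp3a11 and Pbld2. In 11 of the 15 the MET_KO_canertinib signal was under its array median, the exceptions being Fabp1, Mup3, Cyp4f14 and Cyp3a11.

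Among the 15 genes furthest above the range, Crybb3 had the largest distance. Crybb3, a lens crystallin gene, gave 3853 in MET_KO_canertinib, against 88 in MET_FLOX_canertinib, 95 in MET_KO and 71 in MET_FLOX, with all 3 other arms under their array medians. Its distance of 5.12 on the log2 scale was 4.62 with 64 added to the signal instead of 16, so its fold is no measured ratio. S100a8, one chain of calprotectin, gave 22731 in MET_KO_canertinib, against 1006 in MET_FLOX_canertinib, 694 in MET_KO and 787 in MET_FLOX, and S100a9, the other chain, gave 10668 in MET_KO_canertinib, against 878 in MET_FLOX_canertinib, 672 in MET_KO and 691 in MET_FLOX. The 3 other arms lay within 2-fold of each other in all of these. Il1r1, the signalling receptor of interleukin 1, gave 3038 in MET_KO_canertinib, against 147 in MET_FLOX_canertinib, 153 in MET_KO and 152 in MET_FLOX, and its distance of 4.18 was 3.84 with 64 added. Serpina3n, an acute phase protease inhibitor, Cd14, the co-receptor for lipopolysaccharide, the chemokine Cxcl2, the early response gene Ier3, the chitinase-like Chil3, the transcription factor Olig1, the TRAF-binding adaptor Tifa, Cyp17a1, Igfbp1, Lcn2 and Mt2 made up the rest of the 15, at distances of 2.96 to 3.63. In 5 of the 15 (Crybb3, Il1r1, Cxcl2, Chil3 and Olig1) all 3 other arms lay under their array medians.

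**Figure D3:**
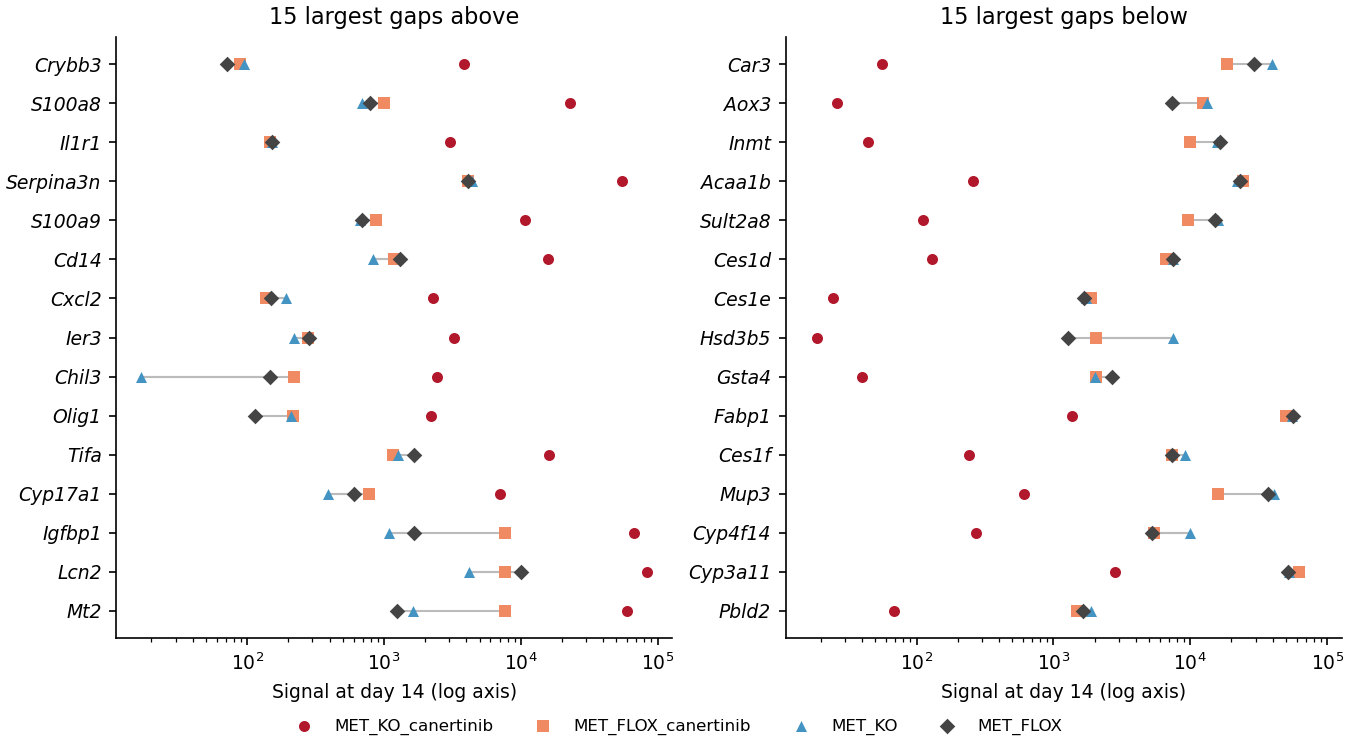
Signals at day 14 on a log axis for the 15 genes furthest above (left) and the 15 furthest below (right) the range of the other 3 arms, 1 array per point. By the rule that chose these genes, the red points of MET_KO_canertinib lie apart from the other 3 arms in every row. Car3 stands at 56 against 18508 to 39565 and S100a8 at 22731 against 694 to 1006.

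The acute phase proteins were the list with the largest share above the range. Of 30 measured, 16 were counted above and none below, beside 2.42% and 3.6% of all genes. Their median difference from the other arms' median was 1.94, beside 0.02 for all genes. Serpina3n gave 54757 in MET_KO_canertinib, against 4119 in MET_FLOX_canertinib, 4410 in MET_KO and 4100 in MET_FLOX, so that the other arms lay close together. Lcn2, an iron-siderophore carrier, gave 83663 in MET_KO_canertinib, against 7616 in MET_FLOX_canertinib, 4172 in MET_KO and 10112 in MET_FLOX, an 8.26-fold distance from the highest of them. Saa3 gave 25464 in MET_KO_canertinib, against 1528 in MET_FLOX_canertinib, 812 in MET_KO and 3715 in MET_FLOX. Orm1, Orm2, Saa2, Apcs, Lrg1, Lbp, Steap4, Il1rn, Mt1, Mt2, Socs3, Cd14 and Il1r1 were the other members counted. Saa1 stood just short of the rule at 96670 in MET_KO_canertinib, against 17872 in MET_FLOX_canertinib, 17638 in MET_KO and 48335 in MET_FLOX.

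Genes of the cytokine pathways that reach hepatocytes were also among the higher ones. Of 28 measured genes of IL6, STAT3 and NF-kappa-B signalling, 9 were above the range and 2 below, with a median difference of 0.74. Socs3, the feedback inhibitor that STAT3 induces, gave 4798 in MET_KO_canertinib, against 720 in MET_FLOX_canertinib, 469 in MET_KO and 367 in MET_FLOX, a 6.54-fold distance. The feedback inhibitors and effectors Tnfaip3, Nfkbiz, Relb, Pim1 and Cebpd were above the range too. The 2 lower members were both receptor chains. Il1rap, the partner chain of the interleukin 1 receptor, gave 883 in MET_KO_canertinib, against 4094 in MET_FLOX_canertinib, 4265 in MET_KO and 4487 in MET_FLOX, opposite in direction to Il1r1, although only 1 of its 4 probe sets lay below the range and the mean of its probe sets lay only 0.38 below it (-0.38), short of the rule. Lifr, the receptor of leukaemia inhibitory factor, gave 552 in MET_KO_canertinib, against 2108 in MET_FLOX_canertinib, 6376 in MET_KO and 4819 in MET_FLOX, and the mean of its probe sets, at -0.79, was short of the rule.

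Of 23 measured cytokines, chemokines and adhesion molecules, 6 were above the range and none below, with a median difference of 0.35. Cxcl2, which attracts neutrophils, gave 2299 in MET_KO_canertinib, against 137 in MET_FLOX_canertinib, 191 in MET_KO and 150 in MET_FLOX. Cxcl1, which acts on the same receptor, gave 10811 in MET_KO_canertinib, against 2496 in MET_FLOX_canertinib, 1988 in MET_KO and 2078 in MET_FLOX. Ccl6 gave 3559 in MET_KO_canertinib, against 386 in MET_FLOX_canertinib, 472 in MET_KO and 838 in MET_FLOX, and Icam1, Il1b and Cxcl14 were the other members counted. Interferon-responsive and antigen presentation genes did not share this direction. None of 28 measured was outside the range by over 1, and their median difference was -0.51. B2m, the light chain of class I molecules, gave 19614 in MET_KO_canertinib, against 19065 in MET_FLOX_canertinib, 44248 in MET_KO and 46988 in MET_FLOX, so that both drug arms lay under both arms without drug.

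Neutrophil genes stood above the range as well. Of 11 measured, 5 were above it (S100a8, S100a9, Lcn2, Ngp and Mpo) and none below, and 10 were above it at any distance. The summed signal of the list was 132943 in MET_KO_canertinib, against 16080 in MET_FLOX_canertinib, 11227 in MET_KO and 18465 in MET_FLOX, of which Lcn2, a gene hepatocytes also express in an acute phase response, was the largest term. Ngp, a granule protein of neutrophil precursors, gave 6180 in MET_KO_canertinib, against 1517 in MET_FLOX_canertinib, 1177 in MET_KO and 1035 in MET_FLOX. In bulk tissue, more or fewer cells of a type and more or less RNA per cell cannot be told apart. How much neutrophils contributed to the inflammatory genes above was not tested. With the genes of the neutrophil, lymphocyte, macrophage and erythroid lists left out, 323 genes stood above the range. This only takes away the counted members of these lists and says nothing on what such cells contributed to other genes.

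Other cell type lists had few genes outside the range in number, but in these short lists the shares could exceed those of all genes. The shares above were 7.69% of lymphocyte, 11.1% of endothelial, 3.85% of stellate, 8.33% of cholangiocyte and 28.6% of adipocyte genes, beside 2.42%. Those below were 9.09% of erythroid and 14.3% of adipocyte genes, beside 3.6%. None of 19 macrophage and Kupffer cell genes was counted, and their summed signal of 57839 in MET_KO_canertinib lay between 38778 in MET_FLOX_canertinib, 33079 in MET_KO and 78750 in MET_FLOX. Csf1r, the receptor that macrophages depend on, gave 7490 in MET_KO_canertinib, against 7210 in MET_FLOX_canertinib, 5950 in MET_KO and 10639 in MET_FLOX. Among 13 lymphocyte genes 1 was above the range, Jchain, the joining chain of secreted antibodies, at 2125 in MET_KO_canertinib, against 645 in MET_FLOX_canertinib, 342 in MET_KO and 297 in MET_FLOX. Of 18 endothelial genes 2 were above it. They were Wnt2, at 340 in MET_KO_canertinib, against 24 in MET_FLOX_canertinib, 82 in MET_KO and 106 in MET_FLOX, and Rspo3, at 325 in MET_KO_canertinib, against 49 in MET_FLOX_canertinib, 114 in MET_KO and 45 in MET_FLOX, both encoding ligands by which endothelial cells around the central vein act on hepatocytes.

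Of 26 stellate cell and matrix genes, Col4a1, a basement membrane collagen, was the 1 above the range, at 3888 in MET_KO_canertinib, against 1018 in MET_FLOX_canertinib, 1168 in MET_KO and 1302 in MET_FLOX. Of 12 cholangiocyte and progenitor genes, Sox9, a transcription factor of bile duct cells, was the 1 above it, at 819 in MET_KO_canertinib, against 396 in MET_FLOX_canertinib, 286 in MET_KO and 343 in MET_FLOX, a distance barely past the rule that fell short of it, at 0.94 to 0.98, with 64 added, with median centring and with quantile normalization. None of 13 fetal liver genes, 6 acinar genes, 7 mesothelial genes or 3 muscle genes was counted. Of 11 erythroid and blood genes 1 was below it, Car2, a carbonic anhydrase, at 135 in MET_KO_canertinib, against 620 in MET_FLOX_canertinib, 462 in MET_KO and 523 in MET_FLOX. Of 7 adipocyte genes Fabp4 and Plin4 were above the range, Fabp4 by only 0.94 for the mean of its probe sets, and Car3, also a hepatocyte gene, was below it. The sex-linked genes measured here were inside 2-fold, with Xist at 603 in MET_KO_canertinib, against 730 in MET_FLOX_canertinib, 1006 in MET_KO and 676 in MET_FLOX, and Eif2s3y, on the Y chromosome, at 544 in MET_KO_canertinib, against 582 in MET_FLOX_canertinib, 437 in MET_KO and 445 in MET_FLOX.

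Promoters of 4 genes that carry this contrast are printed to show the sequence upstream of 2 higher and 2 lower genes, each chosen because it holds 1 of the motifs searched. Each window covers the 250 bases before the RefSeq start on assembly GRCm38.p6, read 5′ to 3′ on the gene's strand, and capitals mark the single searched motif found in it. Lcn2 (chr2:32387740-32387989, minus strand) holds TTGCNNAA, a C/EBP-type motif. Chil3 (chr3:106167565-106167814, minus strand) holds TTCNNNGAA, a STAT-type motif. Fabp1 (chr6:71199629-71199878, plus strand), the fatty acid binding protein of liver, holds the C/EBP-type motif, and Cyp3a11 (chr5:145879855-145880104, minus strand), a drug-metabolising cytochrome P450, holds CAAAGTCCA, an HNF4-type motif.
Lcn2: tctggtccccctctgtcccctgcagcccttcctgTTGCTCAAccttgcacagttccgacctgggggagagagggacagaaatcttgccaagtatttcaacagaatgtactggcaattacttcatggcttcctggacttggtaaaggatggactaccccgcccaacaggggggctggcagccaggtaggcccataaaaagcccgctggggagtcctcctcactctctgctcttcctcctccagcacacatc
Chil3: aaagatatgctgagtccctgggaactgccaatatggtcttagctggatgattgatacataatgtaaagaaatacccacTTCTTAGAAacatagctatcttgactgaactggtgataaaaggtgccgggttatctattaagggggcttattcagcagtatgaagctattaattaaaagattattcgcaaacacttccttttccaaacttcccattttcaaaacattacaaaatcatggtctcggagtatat
Fabp1: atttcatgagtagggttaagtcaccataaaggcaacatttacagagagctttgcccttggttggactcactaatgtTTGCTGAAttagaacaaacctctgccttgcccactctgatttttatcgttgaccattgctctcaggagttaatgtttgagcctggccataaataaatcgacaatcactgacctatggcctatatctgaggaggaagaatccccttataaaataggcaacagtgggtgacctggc
Cyp3a11: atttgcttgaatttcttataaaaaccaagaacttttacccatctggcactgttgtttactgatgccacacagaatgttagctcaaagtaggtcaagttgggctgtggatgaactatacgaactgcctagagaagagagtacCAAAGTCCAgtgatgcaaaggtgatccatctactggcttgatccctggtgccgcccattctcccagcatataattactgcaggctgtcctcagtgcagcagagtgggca

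Each motif was searched on both strands, in 5 kinds, the others being GGGANTTCC, an NF-kappa-B-type motif, and an HNF1-type motif. A promoter window was given for 238 of the 329 higher genes, 401 of the 489 lower genes and 10925 of all 13577. The STAT-type letters stood in 12.6% of higher genes and 5.99% of lower genes, beside 7.19% of all measured genes and 7.02% of all 32851 windows. The C/EBP-type letters stood in 13% of higher and 11.5% of lower genes, beside 9.55% of all measured genes and 9.56% of all windows. The NF-kappa-B-type letters stood in 2.52% of higher and 1.25% of lower genes, beside 2.09% of measured genes and 1.43% of windows. HNF4-type letters were in none of the higher and 0.748% of the lower genes, beside 0.531% of measured genes and 0.384% of windows, and HNF1-type letters in 0.42% and 1.5%, beside 0.403% of measured genes and 0.371% of windows. A match describes letters in this window and is no evidence of binding.

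Conjugation and detoxification genes held the largest number below the range. Of 51 measured, 26 were below it and 1 above, with a median difference of -1.48. Sult2a8, a sulfotransferase, gave 110 in MET_KO_canertinib, against 9645 in MET_FLOX_canertinib, 15871 in MET_KO and 15155 in MET_FLOX. The carboxylesterase Ces1d gave 129 in MET_KO_canertinib, against 6702 in MET_FLOX_canertinib, 7495 in MET_KO and 7516 in MET_FLOX. Its relative Ces1e gave 24 in MET_KO_canertinib, against 1870 in MET_FLOX_canertinib, 1740 in MET_KO and 1674 in MET_FLOX. The 3 other arms were within 2-fold of each other for all 3 genes. Gsta4, a glutathione transferase that handles lipid peroxidation products, gave 40 in MET_KO_canertinib, against 2056 in MET_FLOX_canertinib, 2023 in MET_KO and 2680 in MET_FLOX. Glutathione transferases (among them Gsta2, Gsta3, Gstm1, Gstm3 and Gstt1), UDP-glucuronosyltransferases (Ugt2b1, Ugt2b5, Ugt2b34, Ugt2b36 and Ugt2a3) and the epoxide hydrolases Ephx1 and Ephx2 were also below it. Carboxylesterase and glucuronosyltransferase genes are close copies of each other, so a probe set may read more than 1 of them. The 1 higher member was Nnmt, which methylates nicotinamide, at 17689 in MET_KO_canertinib, against 7980 in MET_FLOX_canertinib, 4680 in MET_KO and 5800 in MET_FLOX.

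Of 34 measured xenobiotic cytochromes P450 and their receptors, 12 were below the range and 1 above, with a median difference of -1.05. Cyp3a11, whose promoter is printed above, gave 2818 in MET_KO_canertinib, against 62237 in MET_FLOX_canertinib, 53011 in MET_KO and 51661 in MET_FLOX, an 18.2-fold distance. Cyp2c29 gave 1234 in MET_KO_canertinib, against 18869 in MET_FLOX_canertinib, 20391 in MET_KO and 14773 in MET_FLOX. Cyp1a2, which metabolises caffeine, gave 1458 in MET_KO_canertinib, against 10430 in MET_FLOX_canertinib, 20738 in MET_KO and 18211 in MET_FLOX. All 3 are drug-metabolising enzymes. Not every cytochrome followed. Cyp2e1, which oxidises ethanol and was taken up here after its values were seen, gave 52688 in MET_KO_canertinib, against 67778 in MET_FLOX_canertinib, 56687 in MET_KO and 59962 in MET_FLOX, and was inside the rule. Cyp17a1, the steroid 17-hydroxylase, was the 1 higher member, at 7073 in MET_KO_canertinib, against 778 in MET_FLOX_canertinib, 388 in MET_KO and 602 in MET_FLOX.

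Lipid genes below the range belonged to both synthesis and oxidation. Of 30 measured fatty acid and triglyceride synthesis genes, 14 were below the range and none above, with a median difference of -1.30. Scd1, the desaturase that makes monounsaturated fatty acids, gave 3428 in MET_KO_canertinib, against 38185 in MET_FLOX_canertinib, 54398 in MET_KO and 48590 in MET_FLOX, an 11.1-fold distance. Elovl3, an elongase, gave 357 in MET_KO_canertinib, against 8904 in MET_FLOX_canertinib, 8714 in MET_KO and 5077 in MET_FLOX. The lipogenic transcription factors were among them. Srebf1, chosen with Mlxipl and Fasn after their values were seen, gave 2125 in MET_KO_canertinib, against 7205 in MET_FLOX_canertinib, 6431 in MET_KO and 7805 in MET_FLOX. Mlxipl gave 1531 in MET_KO_canertinib, against 3982 in MET_FLOX_canertinib, 5704 in MET_KO and 3276 in MET_FLOX. Fasn, the fatty acid synthase, gave 1884 in MET_KO_canertinib, against 5477 in MET_FLOX_canertinib, 4063 in MET_KO and 6213 in MET_FLOX. Cholesterol synthesis genes were not below the range as a group, with 1 of 20 counted, Sc5d, and a median difference of 0.11.

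Of 37 measured fatty acid oxidation and PPAR alpha target genes, 9 were below the range and 2 above, with a median difference of -0.74. Fabp1 gave 1368 in MET_KO_canertinib, against 49993 in MET_FLOX_canertinib, 55034 in MET_KO and 56642 in MET_FLOX, a 36.1-fold distance. Both of its probe sets lay below the range at some distance. Ehhadh, a peroxisomal enzyme of fatty acid oxidation, gave 225 in MET_KO_canertinib, against 1549 in MET_FLOX_canertinib, 3547 in MET_KO and 2702 in MET_FLOX. Cyp4a12a, a fatty acid hydroxylase, gave 678 in MET_KO_canertinib, against 5758 in MET_FLOX_canertinib, 16672 in MET_KO and 13825 in MET_FLOX. The 2 higher members were Pdk4, a brake on glucose oxidation, and Ppargc1a, a coactivator of mitochondrial and fasting genes. Pdk4 gave 766 in MET_KO_canertinib and at most 237 in the other arms, and Ppargc1a gave 1122 in MET_KO_canertinib and at most 527 in the other arms. None of the 36 oxidative phosphorylation genes was outside the range by over 1, yet 29 of them lay below it at some distance, beside 30.3% of all genes, and their median difference was -0.57.

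Of 46 measured urea cycle and amino acid breakdown genes, 18 were below the range and 2 above, with a median difference of -1.04. Otc, the second enzyme of the urea cycle, gave 1848 in MET_KO_canertinib, against 13810 in MET_FLOX_canertinib, 18282 in MET_KO and 13231 in MET_FLOX. This was a 7.11-fold distance for its brightest probe set, and all 3 of its probe sets lay below the range at some distance. Afmid, of the tryptophan breakdown pathway, gave 77 in MET_KO_canertinib, against 2055 in MET_FLOX_canertinib, 1776 in MET_KO and 1469 in MET_FLOX. Prodh2, which breaks down hydroxyproline, gave 64 in MET_KO_canertinib, against 951 in MET_FLOX_canertinib, 1431 in MET_KO and 658 in MET_FLOX. Ido2, Haao and Kynu, which also act in tryptophan breakdown, were among the other lower members. The urea cycle itself was uneven, since Cps1, its entry enzyme, which was taken up after its values were seen, gave 18121 in MET_KO_canertinib, against 42994 in MET_FLOX_canertinib, 41017 in MET_KO and 36027 in MET_FLOX, just short of the rule. The 2 higher members were Mat1a, which makes S-adenosylmethionine, at 57605 in MET_KO_canertinib, against 18405 in MET_FLOX_canertinib, 19925 in MET_KO and 16341 in MET_FLOX, and Got1, a transaminase, at 19130 in MET_KO_canertinib, against 4009 in MET_FLOX_canertinib, 8293 in MET_KO and 7938 in MET_FLOX.

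Of 28 measured bile acid genes, 7 were below the range and none above, with a median difference of -0.80. They covered both synthesis and transport. Abcb11, the pump that exports bile salts into bile, gave 1214 in MET_KO_canertinib, against 11900 in MET_FLOX_canertinib, 12836 in MET_KO and 8730 in MET_FLOX, a 7.11-fold distance. Slco1a1, an uptake carrier, gave 639 in MET_KO_canertinib, against 3536 in MET_FLOX_canertinib, 8621 in MET_KO and 2878 in MET_FLOX. Cyp8b1, which sets the share of cholic acid, gave 554 in MET_KO_canertinib, against 3973 in MET_FLOX_canertinib, 4630 in MET_KO and 2234 in MET_FLOX. In all of these, as the rule requires, the combined blockade was the lowest of the 4 arms by over 2-fold. Cyp7a1, the rate-limiting enzyme of bile acid synthesis, gave 415 in MET_KO_canertinib, against 3216 in MET_FLOX_canertinib, 905 in MET_KO and 5003 in MET_FLOX, so that its distance was set by the low MET_KO value. Cyp27a1, Hsd3b7 and Amacr, further enzymes of synthesis, were the other members counted.

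**Figure D4:**
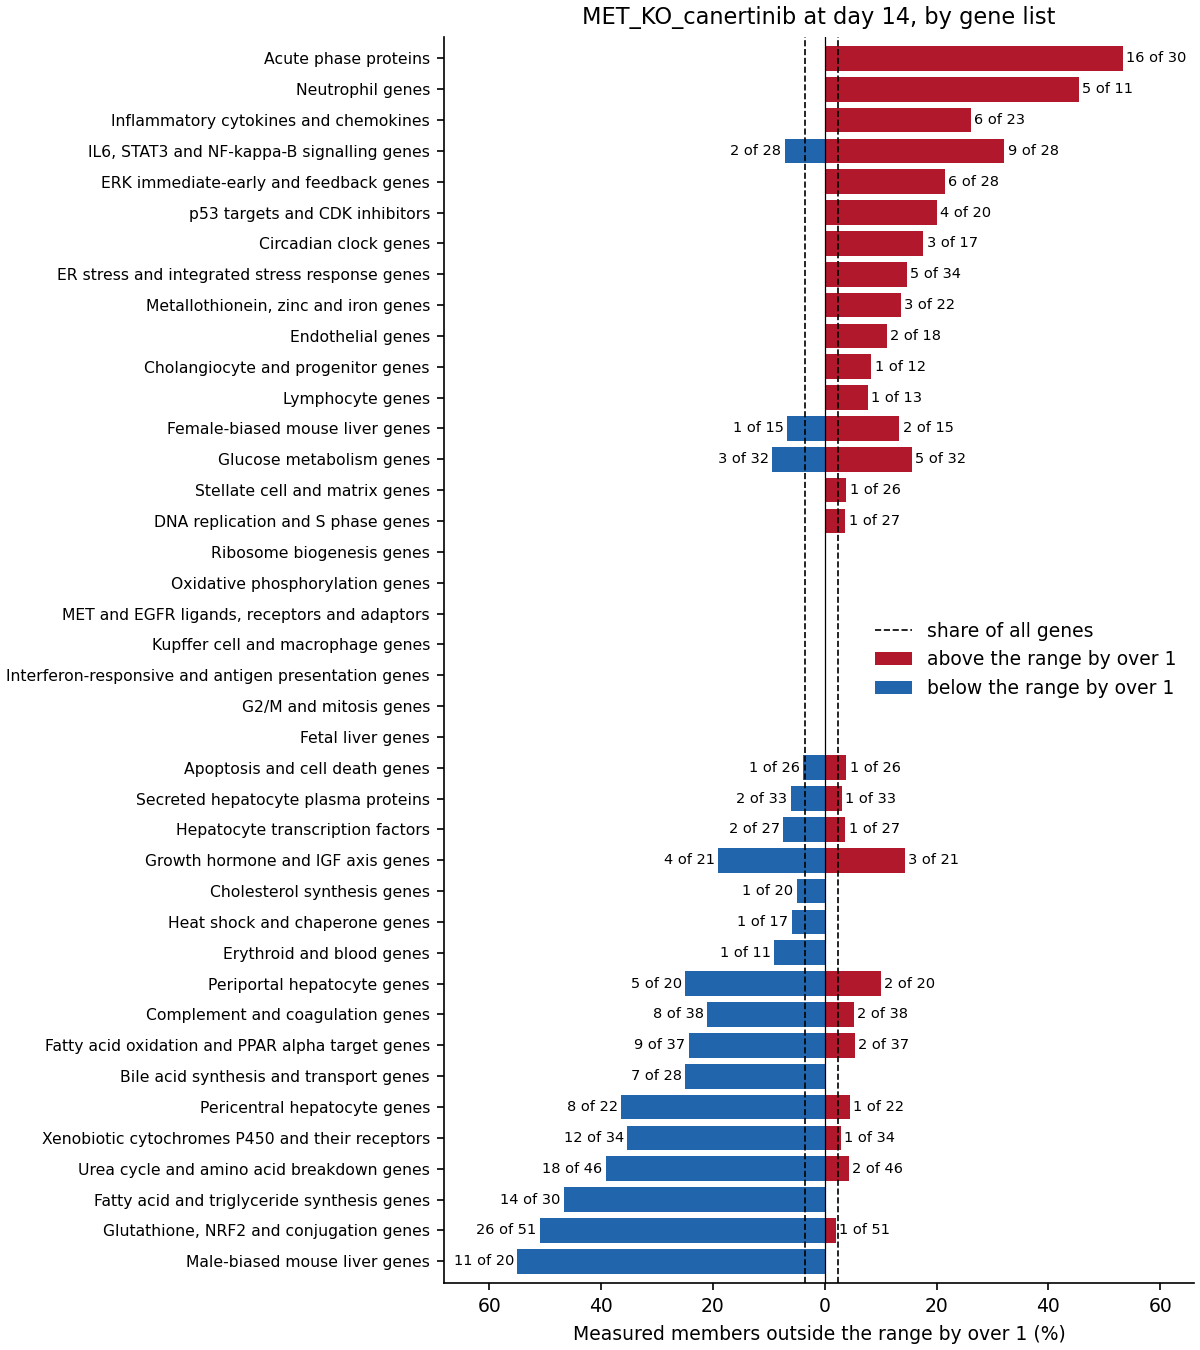
For each gene list with 10 or more measured members, the bar to the right gives the percentage of members above the range of the other 3 arms by over 1 (log2) in MET_KO_canertinib at day 14 and the bar to the left the percentage below it; dashed lines mark 2.42% and 3.6%, the shares of all genes. Acute phase proteins reach 16 of 30 above, and male-biased liver genes 11 of 20 below.

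Few secreted plasma proteins met the 2-fold rule. Of 33 measured, 2 (6.06%) were counted below, beside 3.6% of all genes, and 1 (3.03%) above, beside 2.42%, and the median difference was -0.04. At any distance 14 lay below the range and 7 above it. Afm, a vitamin E carrier, gave 1202 in MET_KO_canertinib, against 11336 in MET_FLOX_canertinib, 13962 in MET_KO and 9156 in MET_FLOX. Serpina6, the carrier of corticosteroids, gave 498 in MET_KO_canertinib, against 3861 in MET_FLOX_canertinib, 4979 in MET_KO and 3179 in MET_FLOX. Apoa4, an apolipoprotein of triglyceride-rich particles, was the higher one at 20258 in MET_KO_canertinib, against 5872 in MET_FLOX_canertinib, 2256 in MET_KO and 1850 in MET_FLOX. Complement and coagulation genes were split. Of 38 measured, 8 were below the range and 2 above, with a median difference of -0.14. Klkb1, the precursor of plasma kallikrein, gave 422 in MET_KO_canertinib, against 5344 in MET_FLOX_canertinib, 3666 in MET_KO and 3779 in MET_FLOX. Mbl2, a mannose-binding lectin, gave 2436 in MET_KO_canertinib, against 18318 in MET_FLOX_canertinib, 13618 in MET_KO and 12468 in MET_FLOX. C6, C8b, C8g and C9, components of the terminal complement pore, were among the lower ones. Thbd, the thrombin receptor of vessel walls, was higher, at 1841 in MET_KO_canertinib, against 382 in MET_FLOX_canertinib, 243 in MET_KO and 375 in MET_FLOX.

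Among 27 measured hepatocyte transcription factors, Foxa2 and Cebpa were below the range and Cebpd was above it. Cebpa, which sustains metabolic genes of the adult hepatocyte, gave 5878 in MET_KO_canertinib, against 11903 in MET_FLOX_canertinib, 15441 in MET_KO and 13492 in MET_FLOX. Its distance of -1.02 was -0.69 after quantile normalization of the 4 arrays, short of the rule. Cebpd, a family member induced in inflammation, gave 2480 in MET_KO_canertinib, against 579 in MET_FLOX_canertinib, 228 in MET_KO and 1078 in MET_FLOX. Foxa2 gave 698 in MET_KO_canertinib, against 2006 in MET_FLOX_canertinib, 2100 in MET_KO and 1572 in MET_FLOX. The remaining 24 factors were inside the rule, and the median difference of the list was -0.21.

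Some genes of both ends of the liver lobule were below the range. Of 22 pericentral genes 8 (36.4%) were below it and 1 (4.55%), Slc13a3, above, with a median difference of -0.83. Of 20 periportal genes 5 (25%) were below and 2 (10%), Sox9 and Apoa4, above, with a median difference of -0.97. The shares of all genes were 3.6% below and 2.42% above. The pericentral Glul and Tbx3 and the periportal Pck1 lay inside the range. The periportal Ass1, Arg1 and Asl lay above it by under 1. Rnf43, a Wnt feedback gene of the pericentral zone, gave 18 in MET_KO_canertinib, against 347 in MET_FLOX_canertinib, 265 in MET_KO and 292 in MET_FLOX. Cyp2f2, a periportal cytochrome P450, gave 2542 in MET_KO_canertinib, against 36644 in MET_FLOX_canertinib, 40635 in MET_KO and 32069 in MET_FLOX, a 12.5-fold distance. Etnppl, a periportal lipid enzyme, gave 616 in MET_KO_canertinib, against 4940 in MET_FLOX_canertinib, 8196 in MET_KO and 3568 in MET_FLOX. That MET_KO_canertinib lay apart from the other 3 arms in these genes follows from the rule. Hal, which breaks down histidine, gave 1361 in MET_KO_canertinib, against 6660 in MET_FLOX_canertinib, 7296 in MET_KO and 3333 in MET_FLOX.

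Male-biased liver genes, which in mice depend on the pulsed growth hormone of males, had the largest share below the range of the lists with 10 or more measured members, 11 of 20, with none above and a median difference of -1.54. The labels do not state the sex of the mice in any arm. Mup3, a major urinary protein, gave 613 in MET_KO_canertinib, against 16079 in MET_FLOX_canertinib, 41088 in MET_KO and 36870 in MET_FLOX. The major urinary protein genes are near-identical copies, so this probe set may read several of them. Hsd3b5, a steroid dehydrogenase, gave 19 in MET_KO_canertinib, against 2030 in MET_FLOX_canertinib, 7532 in MET_KO and 1271 in MET_FLOX. Low values of Hsd3b5 were not particular to this array, which ranked 4 of 16 from the lowest. At days 0, 2 and 7 MET_KO_canertinib gave 16.5, 304.8 and 52.1, and MET_FLOX, on arrays of lower median signal, gave 54.5, 9 and 9.3. Nox4 gave 27 in MET_KO_canertinib, against 505 in MET_FLOX_canertinib, 638 in MET_KO and 677 in MET_FLOX. Of 15 female-biased genes 2 were above the range and 1 below. Cux2, a transcription factor of the female pattern, gave 2396 in MET_KO_canertinib, against 564 in MET_FLOX_canertinib, 290 in MET_KO and 515 in MET_FLOX, Cyp17a1 was the other higher one and Lifr the lower one. In the growth hormone and IGF list, 3 of 21 were above the range and 4 below, the lower ones being Ghr, the growth hormone receptor, Igf2r, Igfbp5 and Lifr. Igfbp1, an IGF-binding protein of fasting and stress, gave 67308 in MET_KO_canertinib, against 7604 in MET_FLOX_canertinib, 1097 in MET_KO and 1644 in MET_FLOX, an 8.84-fold distance.

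Several stress genes were above the range. Of 22 metallothionein, zinc and iron genes 3 were above the range and none below. Mt1, a zinc-binding protein, gave 74344 in MET_KO_canertinib, against 9596 in MET_FLOX_canertinib, 2360 in MET_KO and 965 in MET_FLOX. Mt2 gave 59345 in MET_KO_canertinib, against 7606 in MET_FLOX_canertinib, 1629 in MET_KO and 1239 in MET_FLOX. In both, MET_FLOX_canertinib was the nearest arm. Slc39a14, a zinc and iron importer, gave 15167 in MET_KO_canertinib, against 4166 in MET_FLOX_canertinib, 2870 in MET_KO and 2678 in MET_FLOX. Of 34 ER stress genes 5 were above the range and none below, with a median difference of 0.61. Creld2, an ER chaperone of the unfolded protein response, gave 2815 in MET_KO_canertinib, against 746 in MET_FLOX_canertinib, 724 in MET_KO and 757 in MET_FLOX. Manf, Hspa5, Hsp90b1 and Ddit4 were the other ones. Among 17 cytosolic heat shock genes and chaperones Dnaja1 alone was counted, on the lower side, at 1631 in MET_KO_canertinib, against 3377 in MET_FLOX_canertinib, 4368 in MET_KO and 5085 in MET_FLOX, with distances of -0.95 after quantile normalization and -0.63 for the mean of its probe sets.

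Several early response genes downstream of ERK were above the range. Of 28 measured early response and feedback genes, 6 (21.4%) were above and none below by the rule, beside 2.42% and 3.6% of all genes. The median difference was 0.48, and at any distance 15 lay above the range and 5 below. Of the feedback genes, Dusp6, Spry2, Spry4 and Etv5 lay inside the range, Spry1 and Spred2 above it by under 1 and Spred1 below it by under 1. Whether ERK activity differed was not tested. Ier3 gave 3248 in MET_KO_canertinib, against 279 in MET_FLOX_canertinib, 220 in MET_KO and 285 in MET_FLOX. Junb, an AP-1 subunit, gave 3353 in MET_KO_canertinib, against 735 in MET_FLOX_canertinib, 616 in MET_KO and 798 in MET_FLOX. Myc, a transcription factor of growth, gave 501 in MET_KO_canertinib, against 61 in MET_FLOX_canertinib, 57 in MET_KO and 169 in MET_FLOX. Klf6, Btg2 and Dusp1 were the others, Klf6 by only 0.69 for the mean of its probe sets. Few cell cycle genes were outside the range. By the rule, 1 of 27 genes of S phase (3.7%) was counted and none of 28 genes of G2/M and mitosis, beside 6.02% of all genes. In 4 of the S phase and 9 of the G2/M genes all 4 arrays lay under their medians, so the rule could not count them. At any distance 7 S phase genes lay above the range and 6 below, and 7 and 5 of the G2/M genes. Counts this small in short lists are no result about the cell cycle. Cdk1, the mitotic kinase, named here after its values were seen, gave 38 in MET_KO_canertinib, against 127 in MET_FLOX_canertinib, 215 in MET_KO and 197 in MET_FLOX. It lay 1.41 below the range on the log2 scale (a distance of -1.41) and was not counted because the other arms were under their array medians. The S phase gene was Ccne1, a cyclin of S phase entry, at 1216 in MET_KO_canertinib, against 558 in MET_FLOX_canertinib, 495 in MET_KO and 529 in MET_FLOX, with a distance of 0.74 for the mean of its probe sets. Pcna, the replication clamp, gave 1040 in MET_KO_canertinib, against 1146 in MET_FLOX_canertinib, 1455 in MET_KO and 1891 in MET_FLOX.

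Of 20 p53 targets and CDK inhibitors 4 (20%) were above the range and none below by the rule, beside 2.42% and 3.6% of all genes. Their median difference was 0.21. At any distance 11 lay above the range and 6 below it, among the latter Plk2 and Bbc3. Cdkn1a, which encodes the CDK inhibitor p21, gave 1801 in MET_KO_canertinib, against 619 in MET_FLOX_canertinib, 362 in MET_KO and 389 in MET_FLOX. Gadd45g, a growth arrest gene, gave 5430 in MET_KO_canertinib, against 1277 in MET_FLOX_canertinib, 158 in MET_KO and 361 in MET_FLOX. Trp53inp1, a p53-induced gene, gave 7298 in MET_KO_canertinib, against 1780 in MET_FLOX_canertinib, 1017 in MET_KO and 1254 in MET_FLOX, with its other probe set below the range. In each, MET_FLOX_canertinib was the highest of the other arms. Of 26 apoptosis genes, Birc3, an inhibitor of cell death, was above the range at 1300 in MET_KO_canertinib, against 519 in MET_FLOX_canertinib, 636 in MET_KO and 506 in MET_FLOX, a distance that was 0.96 with 64 added and 0.95 after median centring. Fas, a death receptor, was below it at 91 in MET_KO_canertinib, against 377 in MET_FLOX_canertinib, 463 in MET_KO and 353 in MET_FLOX. None of 30 ribosome biogenesis genes was counted.

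Glucose metabolism and clock genes were mixed or few. Of 32 glucose metabolism genes 5 were above the range and 3 below, with a median difference of 0.02. Slc2a2, the glucose carrier of hepatocytes, gave 508 in MET_KO_canertinib, against 2794 in MET_FLOX_canertinib, 6207 in MET_KO and 6498 in MET_FLOX. Ppp1r3c, which directs glycogen synthesis, gave 62 in MET_KO_canertinib, against 2367 in MET_FLOX_canertinib, 2381 in MET_KO and 1284 in MET_FLOX. Irs2, an insulin receptor substrate, was higher at 2245 in MET_KO_canertinib, against 692 in MET_FLOX_canertinib, 354 in MET_KO and 312 in MET_FLOX. Of 17 clock genes Nfil3, Bhlhe40 and Per1 were above the range. Per1, a repressor of the clock, gave 1730 in MET_KO_canertinib, against 312 in MET_FLOX_canertinib, 89 in MET_KO and 785 in MET_FLOX. The labels do not state the hour of day at which livers were taken.

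The earlier days were used to ask whether the same arm already differed from MET_FLOX_canertinib before day 14. The range at day 14 did not use these arrays, but the filter on low signals and the choice of probe set did. Their values therefore helped decide which genes could be counted. With the filter on at least 1 of the 4 day 14 arrays instead, 420 genes stood above the range, against 329. The number below it was 489 with either filter. The earlier days of the genes added by that filter were not compared. The 329 higher genes had a median MET_KO_canertinib minus MET_FLOX_canertinib difference of -0.23, 0.36 and -0.21 on the log2 scale at days 0, 2 and 7, and 1.70 at day 14. For the 489 lower genes it was 0.09, -0.01 and 0.20 at days 0, 2 and 7, and -1.84 at day 14. The medians of the earlier days had the opposite sign to day 14, except at day 2, where the higher genes shared its sign and the lower genes were close to 0. Of the higher genes 28 (8.51%) stood above MET_FLOX_canertinib at all 3 earlier days, beside 13.6% of all genes. Of the lower genes 58 (11.9%) stood below it at all 3, beside 13.4% of all genes, and 102 (20.9%) stood above it at all 3, beside 13.6%. At day 2, 68 (20.7%) of the higher genes stood over 2-fold above MET_FLOX_canertinib, beside 5.35% of all genes. In the opposite direction, 64 (19.5%) of them stood over 2-fold below it at day 0, beside 4.09% of all genes, and 60 (18.2%) at day 7, beside 5.72%. Against the arm's own days 0, 2 and 7, the higher genes had medians of 1.63, 1.24 and 1.51 at day 14 and the lower genes -1.76, -1.69 and -1.75. These genes were chosen by the arm's day 14 values. The direction of the day 14 differences in this paragraph therefore largely follows from the choice and is no separate support.

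Single genes, also chosen by their day 14 values, are given over the 4 days. Fabp1 gave 47360, 40720 and 34223 in MET_KO_canertinib at days 0, 2 and 7 and 1368 at day 14, while MET_FLOX_canertinib gave 68879, 62990, 70761 and 49993 over the same days. Car3 gave 30739, 19986, 8948 and 56 in MET_KO_canertinib, against 49168, 14876, 17857 and 18508 in MET_FLOX_canertinib. Cyp3a11 stayed at 36532, 54187 and 56218 in MET_KO_canertinib before it gave 2818 at day 14. In these 3 genes the low value of this arm was that of the last day. S100a8 gave 368, 4349, 468 and 22731 in MET_KO_canertinib, with its other high value at day 2, against 662, 366, 1025 and 1006 in MET_FLOX_canertinib. Lcn2 was already at 27336, 52305 and 42408 in MET_KO_canertinib before its 83663 at day 14, and MET_FLOX_canertinib gave 68801, 46342, 27773 and 7616. For Mt1 the day 0 array of MET_KO_canertinib stood at 3285, against 52356 in that of MET_FLOX_canertinib, so high values of this gene were not particular to the last day.

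**Figure D5:**
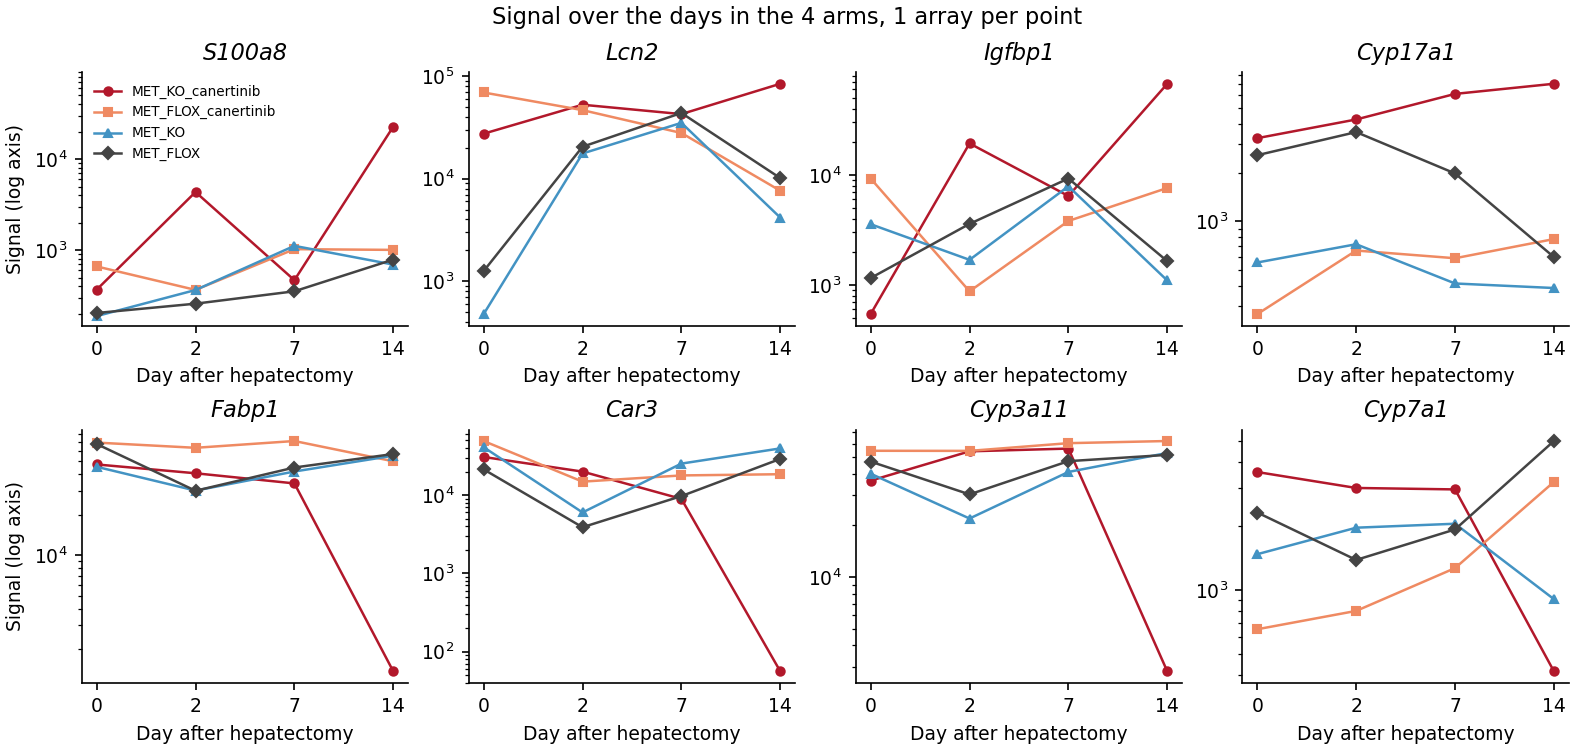
Signal (log axis) of 8 genes at days 0, 2, 7 and 14 in the 4 arms, 1 array per point. Fabp1, Car3 and Cyp3a11 stand low in MET_KO_canertinib at day 14 alone (1368, 56 and 2818), while Cyp17a1 is higher in MET_KO_canertinib than in MET_FLOX_canertinib at every day; MET_KO and MET_FLOX at days 0, 2 and 7 belong to arrays of lower median signal.

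A fit over the 12 arrays of days 0, 2 and 7 compared MET_KO_canertinib with MET_FLOX_canertinib, with arm and day as terms. The 6 arrays of MET_KO and MET_FLOX at these days had median signals of 156.4 to 188.7, below the 244 to 265 of the 10 other arrays, which is why levels of those 2 arms are not compared over the days. With limma and Benjamini-Hochberg adjustment over 13577 genes, 3 genes were higher and 1 was lower in MET_KO_canertinib at an adjusted p below 0.05, which is 0.0295% of genes, while 777 had an unadjusted p below 0.05. Cyp17a1 was higher by 3.18 (SE 0.30, adjusted p = 0.00442, limma), with 3264, 4258 and 6125 in MET_KO_canertinib and 268, 661 and 592 in MET_FLOX_canertinib. Cyp17a1 was thus higher in MET_KO_canertinib than in MET_FLOX_canertinib before day 14 and also above the range at day 14. On the arrays of lower median signal, MET_FLOX gave 2562.5, 3558.8 and 1976.3 and MET_KO gave 557.3, 722.6 and 413.5 at days 0, 2 and 7. The reported differences are from MET_FLOX_canertinib alone. Cyp7a1 was higher by 1.85 (SE 0.25, adjusted p = 0.0324, limma), with 3577, 3012 and 2965 in MET_KO_canertinib and 654, 797 and 1267 in MET_FLOX_canertinib, although at day 14 it stood below the range.

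Inf2, an actin-regulating formin, was higher by 2.35 (SE 0.25, adjusted p = 0.00651, limma), with 5649, 5474 and 10650 in MET_KO_canertinib and 1013, 1487 and 1614 in MET_FLOX_canertinib. On the arrays of lower median signal, MET_FLOX gave 10145.8, 5444.9 and 9046 and MET_KO gave 1241.4, 1516.8 and 1825.9 at these days. At day 14 Inf2 gave 1724 in MET_KO_canertinib and 2066 in MET_FLOX_canertinib, inside the range. Myo9b, an unconventional myosin, was lower by 1.86 (fitted difference -1.86, SE 0.24, adjusted p = 0.0263, limma), with 241, 268 and 235 in MET_KO_canertinib and 1171, 640 and 1115 in MET_FLOX_canertinib. At day 14 its 894 in MET_KO_canertinib lay inside the range. Ehhadh and Lifr, both below the range at day 14, had fitted differences of 2.11 and 2.22 at the earlier days that did not pass the test over the 12 arrays (adjusted p = 0.148 and 0.34, limma). The test rests on each arm's 3 days and takes the arm's own course over the days as error. No gene passed when day 0 or day 2 was left out, with 818 and 798 genes at an unadjusted p below 0.05, and 5 passed without day 7, all higher in MET_KO_canertinib: Mmd2, Cyp17a1, Adssl1, Ints14 and Ehhadh. With only the 6 arrays of the canertinib arms, 2 passed, Ehhadh and Cyp17a1, both higher. Inf2, Myo9b and Cyp7a1 passed in neither of these, while Ehhadh passed in both.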

How the data were processed

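Per the submitters' processing notes the arrays were processed with MAS5, with no version stated. The deposited values are linear signal intensity, 1 value a probe set, and the labels give 6 ug of total RNA as input. Trimmed by 2% at either end, the mean was 500 in all 16 arrays. The members, gene lists and rules were chosen with earlier results of these data known. Of 45101 probe sets, 64 controls were left out, and of the rest 34945 with a single gene symbol in the platform annotation were used (932 named several). Of these, 99.4% matched a RefSeq gene identifier. The log2 of signal plus 16 was taken. Genes had to exceed the array's own median in at least 4 of the 16 arrays, and each gene took its brightest probe set on average, which left 22317 probe sets of 13577 genes. A gene was counted where it lay more than 1 (log2) outside the range of the other 3 day 14 arms. The 45 lists named 1170 genes, of which 958 were measured, with 73 above and 124 below the range. Lists overlap, and they are described by counts and medians with no set test.

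The fit at days 0, 2 and 7 used limma 3.58.1 in R 4.3.3, two-sided, with Benjamini-Hochberg adjustment over all 13577 genes and 6 residual degrees of freedom, and was tested on simulated data. Nothing in the labels says whether arrays hold separate animals, so p-values cover only the spread of arrays, which may be technical. Genes were named by a rule that took the 15 with the largest distance in each direction, up to 4 counted members of each list (or 2 of the brightest where fewer than 2 were counted), Met, Egfr and Hgf, and the genes past the test at days 0, 2 and 7. Other list members, Alb, Hnf4a, Cyp2e1 and Cps1 were added after their values were seen. Arrays carry no counts, so their number limits the precision. Figures were drawn with matplotlib 3.10.9 in Python 3.11.15.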

Additional observations from a re-analysis of the deposited data

Results flagged for a closer look

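For 7 of the genes named in the report, the knockout minus flox difference had one sign in all 4 days with canertinib and the opposite sign in all 4 days without it. Only genes named by the rules were checked. The share over all measured genes was not computed, so the 7 cannot be set against a background. Each arm has 1 array a day, the day 0, 2 and 7 arrays with and without drug lie in different array sets, and the difference between the 2 contrasts was not tested. For Aox3, Cyp17a1, Cyp2f2, Hsd3b5 and Slco1a1, which were counted at day 14, the rule fixed the day 14 sign with canertinib, so the mean over days 0, 2 and 7 is given after that over all 4 days. Cyp17a1 was higher in MET_KO_canertinib than in MET_FLOX_canertinib by a mean of 3.17 on the log2 scale, and by 3.18 over days 0, 2 and 7, while MET_KO minus MET_FLOX averaged -1.82. Hsd3b5 averaged -3.40 and -2.57 with canertinib, and 5.27 over the 4 days without it. The day 14 array carried most of the mean in Aox3, which averaged -2.78 and -0.98, against 1.07 without the drug, and in Cyp2f2, which averaged -1.16 and -0.27, against 0.37. It carried part of it in Slco1a1, which averaged -1.14 and -0.71, against 1.22. The 2 genes not counted were Alas2, the haem enzyme of red cell precursors, at -0.53 with canertinib and 0.68 without, and Krt8, a keratin of liver epithelium, at 0.19 and -0.14. The smallest differences of Krt8 on a day, 0.016 with canertinib and -0.027 without, were close to no difference.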

How the results depend on the processing

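With 1 array an arm, the 818 genes rest on single livers or pools, and nothing at day 14 measures the spread between animals. The number of genes above the range (329) was 4176 for any distance (with the condition on the array median kept, unlike the counts of any distance in the report), 55 for a distance over 2, 547 without MET_FLOX_canertinib in the range and 515 without MET_FLOX. The number below (489) was 3613 for any distance, 134 over 2 and 761 without MET_FLOX_canertinib. Lists with 5 or more members above numbered 7, and 32 for any distance and 1 over 2, while those with 5 or more below numbered 10, and 23 and 4. Under the other scalings, pseudocounts, filters and probe set rules the counts of all genes stayed within 1.5 times. They also did so without the genes of 4 blood cell lists (chosen after seeing the data), which only takes away the counted members of those lists. The share of counted genes that stood above was 40.2%, and 29.1% for a distance over 2 and 53.6% for any distance. At days 0, 2 and 7 the 4 calls became 2 with only the 6 canertinib arrays and 0 without day 0 or without day 2, where 3 residual degrees of freedom remain. For single lists, 258 alternative counts stayed within 1.5 times and 41 did not. For the 103 counted genes named, all 1020 alternative values kept their direction, and 14 values of 10 genes (Birc3, Ccne1, Cebpa, Dnaja1, Fabp4, Gpt, Il1rap, Klf6, Lifr and Sox9) no longer passed 1. Counting every kept probe set of a gene, given in the report, was also chosen after seeing the data. No paired analysis was possible because each arm has 1 array a day and the labels give no replicate numbers.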
